A study of Mus musculus with 8 samples.

Results

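The PPAR and C/EBP adipogenic factors described here are 10 genes, chosen by symbol from the deposited table of all genes: Pparg, Ppara, Ppard, Cebpa, Cebpb, Cebpd, Cebpg, Ddit3, Rxra and Nr1h3. All 10 were found among the 43346 genes of the table, and all 10 are among the 15062 genes tested, which are those with at least 1 TPM (a level scaled for transcript length and to a fixed sum per library) in at least 2 libraries. The cells were viable tdTomato-high cells sorted by flow cytometry from healing skin wounds of mice at 12, 15, 21 and 26 days post wounding. Every group had the genotype Sm22-Cre;tdTomato on a mixed background, so the labels of the 4 groups differ by day alone, and there was no unwounded or untreated group. In this genotype Cre is driven by the promoter of Sm22, a gene of contractile cells (its symbol is Tagln), and the red reporter stays on after a cell has turned the promoter off. The promoter is also active in smooth muscle, so the gate marks a history of Sm22 activity rather than a single cell type. Each day has 2 SMART-seq2 libraries (full-length cDNA made from small amounts of RNA), and the labels do not state if each library was made from different mice. The p-values therefore set differences between days against the scatter of these libraries, and may not hold for other mice. The series concerns fat cells that form in wounds, and the comparisons ask how these regulators of fat cell formation changed from day to day.

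As background, fat cell formation in culture runs as a cascade. Cebpb and Cebpd, C/EBP proteins of the leucine zipper class, are induced early by hormones and then switch on Pparg and Cebpa, which maintain each other and the genes of lipid storage. PPAR proteins are nuclear receptors for fatty acids that bind DNA as a pair with RXR. C/EBP proteins bind DNA as pairs with each other, and Cebpb and Cebpd are also acute-phase genes of inflammation, while Ddit3 (CHOP) is a stress-induced family member that can block the others by pairing with them.

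Between 13135 and 14147 genes reached 1 TPM per library. TPM keep no record of depth, so no counting interval could be given. Fibroblast markers were abundant in every library, with the 8 genes of that list summing to 106732.6 and 96589.2 TPM on day 26, against 38569.4 and 52087.2 TPM on day 12; 5 of the 8 rose by limma (median log2 change 0.90). The 5 myofibroblast markers summed to 2373.6 and 2130.5 TPM on day 26, against 5063.9 and 6091.5 TPM on day 12; 4 of the 5 fell (median -1.57). Markers of other cells were present too. The 15 macrophage and leukocyte markers found in the table summed to 889.8 and 1625.2 TPM on day 26, against 6836.8 and 4659.2 TPM on day 12. The 15 keratinocyte markers summed to 439.7 and 810.3 TPM on day 26, against 8.46 and 10.5 TPM on day 12. Xist, which marks female cells, reached 30.7 and 5.54 TPM at day 15, stood at 4.78 and 27.5 TPM at day 21, and did not exceed 0.01 TPM at days 12 and 26. For day 15 against day 12 and day 26 against day 21, Xist and day therefore go together, and sex and day cannot be told apart. Leaving out the 2 libraries with the most Xist does not separate them, because those kept on days 15 and 21 hold 5.54 and 4.78 TPM. In such bulk samples, fewer cells of a type and less RNA per cell cannot be told apart.

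Levels, given in TPM and so scaled per transcript length, separated the genes widely. Averaged over the 8 libraries, Cebpd was the most abundant of the 10 at 213.2 TPM, above 95.2% of the genes tested. Ddit3 followed at 51.2 TPM and Cebpb at 42.7 TPM, above 82.4% and 79.5% of genes. Nr1h3 at 16.7 TPM, Cebpa at 16.6 TPM, Cebpg at 12.5 TPM and Rxra at 10.1 TPM stood between 48.0% and 59.5% of genes. The PPAR genes were the lowest, with Pparg at 5.29 TPM above 33.7% of genes, Ppard at 2.88 TPM above 22.7% and Ppara at 0.983 TPM above 7.4%. Of the 9 neighbouring pairs in this order, only Cebpd and Ddit3 had ranges over the libraries that did not overlap. Nr1h3, ahead of Cebpa by its mean, was the higher of the pair in 3 of 8 libraries.

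**Figure D1:**
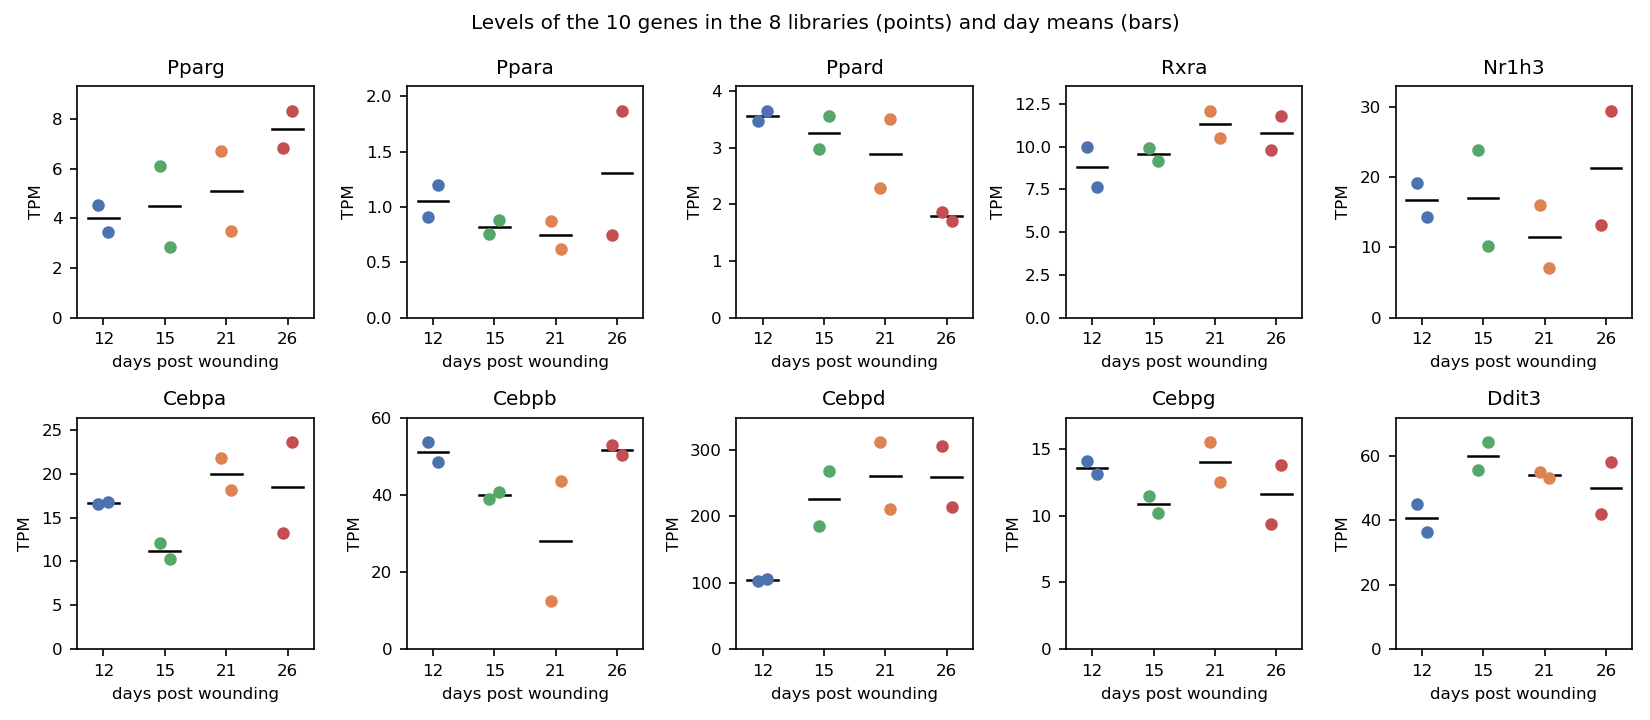
TPM of each of the 10 genes (vertical axis, starting at 0, with its own scale for each gene) against days post wounding; points are the 2 libraries of a day and the bar is their mean. Cebpd lies at or above 185.5 TPM in each of the 6 later libraries, against 103.3 and 105.9 TPM on day 12, whereas for Pparg, Nr1h3 and Cebpb the libraries of a day can lie far apart.

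Cebpd, the C/EBP gene of early fat cell formation and of the acute-phase response, rose between day 12 and day 26. It is listed as ENSMUSG00000071637.4 on the plus strand of chromosome 16 (15887286 to 15891031 in GENCODE vM21, mouse build mm10); the deposited table types it as a pseudogene, although the annotation types it as protein-coding. Its level was 103.3 and 105.9 TPM at day 12, 185.5 and 268.4 TPM at day 15, 311.7 and 211.6 TPM at day 21, and 305.4 and 213.7 TPM at day 26. Every library after day 12 lay above both day 12 libraries, and the 3 later days overlapped. Between days 26 and 12 both later libraries also lay above for 17.9% of tested genes, and the shares for days 15 and 21 are not given here. By day, the means were 104.6 ± 1.81, 227.0 ± 58.6, 261.6 ± 70.7 and 259.5 ± 64.9 TPM (SD, n = 2 each).

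Day 26 exceeded day 12 by 1.28 ± 0.25 (SE) on the log2(TPM + 1) scale, a 2.43-fold difference with a 95% interval of 0.71 to 1.85 on the log2 scale (limma, 2-sided, Benjamini-Hochberg adjusted p = 0.00993). Cebpd was the 1 of the 10 genes that passed an adjusted p of 0.05 in this comparison, where 17.0% of all tested genes passed; 5.26% of tested genes rose and 11.8% fell. The median change of all tested genes was -0.20, so the values of Cebpd and of the other genes stand against a general shift slightly below 0. The F test of limma over the 4 days called Cebpd as well (F = 12.25, adjusted p = 0.0237), again as 1 of 10 genes where 12.4% of tested genes passed. The 2 tests share their libraries. Day 15 exceeded day 12 by 1.09 ± 0.25 and its libraries lay above both of day 12, but the adjusted p of limma was 0.164 in a comparison in which 0.159% of tested genes passed. The call of day 26 against day 12 did not hold when either day 12 library was left out (1.26, adjusted p = 0.0777 without library 2; 1.30, adjusted p = 0.0519 without library 3) or without day 26 library 1 (1.02, adjusted p = 0.0513). The call of the F test did not hold without day 12 library 2 (adjusted p = 0.157), day 12 library 3 (0.129) or day 21 library 2 (0.0561), nor with no filter on low values (0.0946), with no mean-variance trend in limma (0.0682) or without the 2 libraries with the most Xist (0.0715). The sum of the fibroblast markers was also higher on day 26 than on day 12, as given above, but the days between differed. This sum was 51468.9 and 55399.4 TPM on day 15, overlapping day 12, and 90750.2 and 73599.6 TPM on day 21. Cebpd already lay above day 12 on day 15, and its 3 later days overlapped. On each of the 4 days the library with more fibroblast marker TPM also had more Cebpd, as did 4.35% of tested genes. The part of the fibroblast markers in the level of Cebpd was not tested. Spidr, which overlaps Cebpd in part on the opposite strand, was between 7.14 and 10.0 TPM in all libraries. Reads from the stretch that both genes share cannot be told apart without strand.

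Genes of early stress and inflammation, picked after their values were seen, stood beside Cebpd in some libraries. Atf3, an immediate stress gene, was 35.4 and 31.9 TPM at day 12, 94.0 and 93.3 TPM at day 15, 115.5 and 57.8 TPM at day 21, and 60.8 and 12.4 TPM at day 26. Socs3, a feedback inhibitor of cytokine signalling, was 99.0 and 116.1, 219.0 and 237.8, 266.0 and 150.7, and 206.6 and 53.7 TPM over the same days. In day 26 library 2 both genes lay below both day 12 libraries, while Cebpd was 213.7 TPM there. Il6 was 27.3 and 4.63 TPM on day 26, against 3.73 and 1.78 TPM on day 12. The part of these genes, or of handling of the cells before lysis, in the level of Cebpd was not tested. The 3 tested genes with the pattern most like that of Cebpd over the 8 libraries, among 7179 genes at or above the median level that were not unnamed gene models or small RNAs, were Cdc42ep2 (Pearson r = 0.971), Tgoln1 (0.966) and Tnfrsf26 (0.964) on the log2 scale. The points share libraries and days, so these values describe the pattern only.

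Cebpb, the other early C/EBP gene, did not follow Cebpd. It was 53.7 and 48.7 TPM at day 12, 39.1 and 40.7 TPM at day 15, 12.4 and 43.6 TPM at day 21, and 52.9 and 50.5 TPM at day 26. Day 26 and day 12 overlapped, and the lowest value was that of day 21 library 2, whose Cebpd was the highest of all libraries. The difference of day 26 against day 12 was 0.02 ± 0.44 (SE) with a 95% interval of -0.98 to 1.01 (limma, adjusted p = 0.988). Day 26 against day 21 gave 1.11 ± 0.44 (limma, adjusted p = 0.223), a value that was 0.24 without day 21 library 2 and 1.97 without day 21 library 3. None of the 10 genes passed in that comparison, where 0.319% of tested genes passed. Cebpb was the 1 gene of the 10 with an unadjusted p under 0.05 (0.0328). The share of all tested genes under that looser threshold is not given here. Without day 21 library 3, which leaves the 12.4 TPM library alone on that day, the F test called Cebpb (F = 47.66, adjusted p = 0.0102). Tmem189, which overlaps Cebpb in part on the opposite strand, was between 16.5 and 23.1 TPM. Its reads from the shared stretch cannot be told from those of Cebpb without strand.

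Cebpd led the summed C/EBP level in every library, and its lead was larger after day 12. On day 26 Cebpd made up 72.2% and 59.4% of the summed TPM of the 5 C/EBP genes, against 44.4% and 48.0% on day 12. Cebpb made up 12.5% and 14.0% on day 26, against 23.0% and 22.1% on day 12. The libraries of the 2 days do not overlap for either share, but shares of 1 sum are tied together, so these are not 2 separate results. The mean TPM of Cebpb itself was 51.2 on day 12 and 51.7 on day 26, so its lower share is not a fall in its level. The ratio of Cebpd to Cebpb was 1.93 and 2.17 at day 12, 4.74 and 6.60 at day 15, 25.0 and 4.86 at day 21, and 5.77 and 4.23 at day 26. The 25.0 belongs to day 21 library 2, and the 6 later libraries all lay above both day 12 libraries. The difference in change between the C/EBP genes was not tested.

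**Figure D2:**
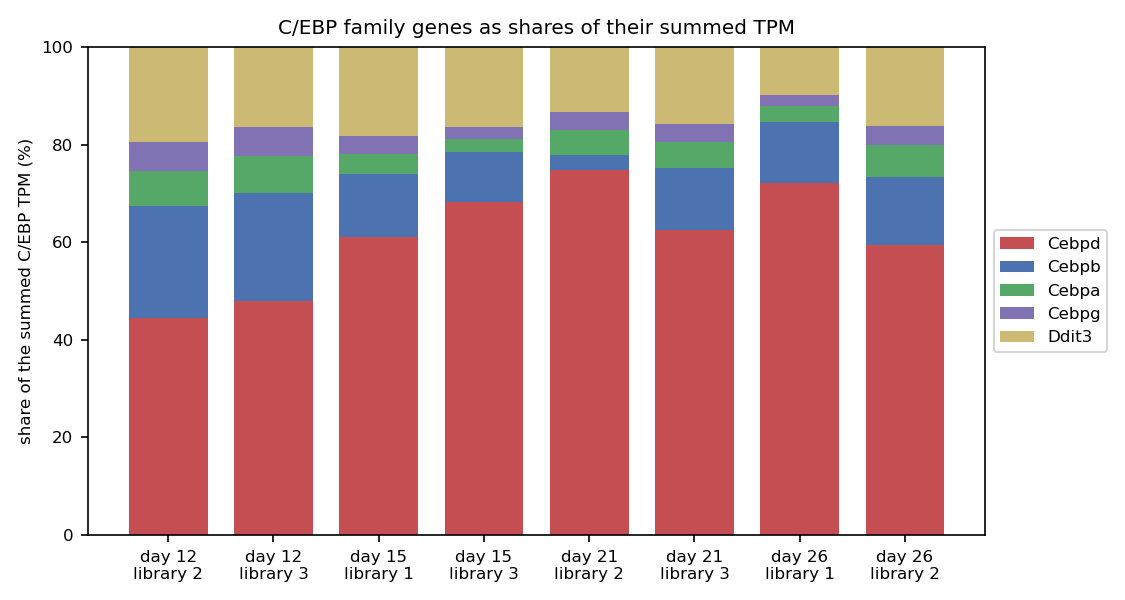
Share of each of the 5 C/EBP genes (Cebpd, Cebpb, Cebpa, Cebpg and Ddit3) in their summed TPM, in percent, as stacked bars for the 8 libraries in order of day. The Cebpd part is between 59.4% and 74.8% in the later libraries, against 44.4% and 48.0% on day 12; the Cebpb part is lowest, at 2.99%, in day 21 library 2.

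Cebpa, the C/EBP gene that holds mature fat cells in their state, was 16.6 and 16.8 TPM at day 12, 12.1 and 10.3 TPM at day 15, 21.8 and 18.2 TPM at day 21, and 13.3 and 23.6 TPM at day 26. The lowest values were those of day 15, where both libraries lay below those of days 12 and 21, and the day 26 libraries enclosed both day 12 values. Day 26 against day 12 gave 0.09 ± 0.26 (SE; 95% interval -0.51 to 0.69; limma, adjusted p = 0.852). Day 21 against day 15 gave 0.78 ± 0.26 by limma, with an unadjusted p of 0.0165 and an adjusted p of 0.168. None of the 10 genes passed there, where 1.40% of tested genes passed. Cebpa was the 1 with an unadjusted p under 0.05, and the share of all tested genes under that looser threshold is not given here. The gene lies on chromosome 7 (35119293 to 35121928, plus strand, ENSMUSG00000034957.9). The genes most like Cebpa over the libraries were Tnfsf12 (r = 0.948), Dbp (0.921) and Ccni (0.921). Dbp, a transcription factor of the circadian clock, was 52.1 and 50.7 TPM at day 12, 40.8 and 16.1 TPM at day 15, 99.7 and 96.4 TPM at day 21, and 17.5 and 174.3 TPM at day 26. The time of day at which wounds were harvested is not given in the sources used here, and its part was not tested.

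Cebpg, a C/EBP protein without an activation domain that serves as a partner for the others, varied little. It was 14.1 and 13.1 TPM at day 12, 11.5 and 10.2 TPM at day 15, 15.5 and 12.5 TPM at day 21, and 9.41 and 13.8 TPM at day 26. Like Cebpa, which lies on the same stretch of chromosome 7, it was lower in both day 15 libraries than in those of days 12 and 21. By limma neither gene passed for day 15 against day 12 (adjusted p = 0.645 for Cebpa and 0.866 for Cebpg). Nor did they for day 21 against day 15 (0.168 and 0.475). The share of all tested genes with this order of days is not given here, and a link between the 2 genes was not tested. The change was -0.23 between days 26 and 12, with a 95% interval of -0.76 to 0.30 (limma, adjusted p = 0.53).

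Ddit3, the stress-induced member, was 45.2 and 36.4 TPM at day 12, 55.5 and 64.2 TPM at day 15, 55.1 and 53.2 TPM at day 21, and 41.8 and 58.0 TPM at day 26. Its mean was highest on day 15, but day 26 library 2 lay above day 15 library 1, and days 12 and 26 overlapped. Day 15 against day 12 gave 0.55 ± 0.19 (SE) with an unadjusted p of 0.0204 and an adjusted p of 0.415 by limma. With Cebpd it was 1 of 2 genes of the 10 with an unadjusted p under 0.05 in that comparison. The share of all tested genes under that looser threshold is not given here. After adjustment none of the 10 passed, where 0.159% of tested genes passed. For day 26 against day 12 the change was 0.27 ± 0.19 (95% interval -0.16 to 0.71; adjusted p = 0.366). Mars, which overlaps the end of Ddit3 on the opposite strand, was between 32.5 and 43.5 TPM, a level close to that of Ddit3.

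Pparg, the nuclear receptor that drives fat cell formation, was highest on day 26, but the difference did not pass the test. The gene (ENSMUSG00000000440.8) spans 115360951 to 115490399 on the plus strand of chromosome 6, with 7 transcripts in GENCODE vM21. The deposited value is 1 per gene, so transcripts from all its starts are pooled in it. As background, the isoform of fat cells starts from an internal promoter of the gene, and C/EBP proteins act on Pparg. The RefSeq windows around its starts (build GRCm38.p6, 250 bases before to 50 after each start, plus strand) are shown because the gene value cannot separate them, with the window of Cebpa, its partner in the cascade, beside them. Capitals mark the letters searched: AGGTCA, the element bound by nuclear receptors, and TTGCNNAA, a C/EBP element, each on both strands, and TATAAA on the plus strand. No marked stretch overlaps another in these windows.
Pparg, chr6:115360894-115361193: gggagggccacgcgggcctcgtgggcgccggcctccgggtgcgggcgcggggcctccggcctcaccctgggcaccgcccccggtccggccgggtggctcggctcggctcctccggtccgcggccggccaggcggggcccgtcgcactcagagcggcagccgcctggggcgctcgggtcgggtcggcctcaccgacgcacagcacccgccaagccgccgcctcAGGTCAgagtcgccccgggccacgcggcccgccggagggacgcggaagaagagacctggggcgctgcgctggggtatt
Pparg, chr6:115362099-115362398: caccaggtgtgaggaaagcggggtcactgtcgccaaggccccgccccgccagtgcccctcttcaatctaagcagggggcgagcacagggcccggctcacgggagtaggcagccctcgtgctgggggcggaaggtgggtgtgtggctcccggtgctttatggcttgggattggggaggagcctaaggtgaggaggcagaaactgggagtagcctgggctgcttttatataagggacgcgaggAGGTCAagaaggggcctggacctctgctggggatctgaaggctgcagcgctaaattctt
Pparg, chr6:115421816-115422115: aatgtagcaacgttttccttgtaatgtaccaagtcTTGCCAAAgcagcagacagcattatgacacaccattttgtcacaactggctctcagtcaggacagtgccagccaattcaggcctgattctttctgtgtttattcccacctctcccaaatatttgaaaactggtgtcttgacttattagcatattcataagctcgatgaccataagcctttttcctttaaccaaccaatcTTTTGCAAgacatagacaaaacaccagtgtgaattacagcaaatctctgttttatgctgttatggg
Cebpa, chr7:35119043-35119342: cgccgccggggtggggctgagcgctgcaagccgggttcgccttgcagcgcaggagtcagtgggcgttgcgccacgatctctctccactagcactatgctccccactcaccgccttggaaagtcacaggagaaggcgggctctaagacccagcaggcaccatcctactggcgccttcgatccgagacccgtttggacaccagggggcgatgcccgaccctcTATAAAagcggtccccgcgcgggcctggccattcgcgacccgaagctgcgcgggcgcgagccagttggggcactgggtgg

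The 3 Pparg windows differ in base content. The upstream window has 80.3% GC and 44 CpG sites, the middle window 62.7% GC and 13 CpG sites, and the internal window 40.3% GC and 2 CpG sites, against a median of 52.7% GC over all 32851 windows of the table. The upstream and the middle window each hold 1 AGGTCA, which 16.3% of all windows hold on either strand. The internal window holds 2 matches to TTGCNNAA, 1 on each strand, and 10.8% of all windows hold at least 1. The Cebpa window has 67.3% GC, 29 CpG sites and 1 TATAAA, which 8.32% of windows hold on the plus strand. A match describes these letters and is not a binding site shown to be in use. RefSeq windows were matched for 9 of the 10 genes, and Cebpd is named only.

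The level of Pparg was 4.55 and 3.44 TPM at day 12, 6.10 and 2.86 TPM at day 15, 6.70 and 3.47 TPM at day 21, and 6.84 and 8.33 TPM at day 26. Both day 26 libraries lay above those of days 21 and 12, as they did for 17.9% of tested genes between days 26 and 12. On the log2(TPM + 1) scale the replicate libraries lay 0.88 apart on day 15 and 0.78 apart on day 21, no less than the difference of the day means below. Day 26 against day 12 gave 0.78 ± 0.37 (SE), a 1.72-fold difference with a 95% interval of -0.06 to 1.63 on the log2 scale (limma, unadjusted p = 0.0644, adjusted p = 0.184). The slope over the 4 days was 0.053 ± 0.023 log2 units per day (unadjusted p = 0.0432, adjusted p = 0.15). In that trend none of the 10 genes passed by limma, where 15.8% of tested genes passed. The 3 with an unadjusted p under 0.05 were Pparg, Ppard and Cebpd. The share of all tested genes under that looser threshold is not given here, so this count has no background to be read against. The genes most like Pparg were Csad (r = 0.942), Selenbp1 (0.936) and Cyth3 (0.936).

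Ppard, the widely expressed PPAR, moved the other way in value. It was 3.47 and 3.65 TPM at day 12, 2.97 and 3.56 TPM at day 15, 2.29 and 3.50 TPM at day 21, and 1.87 and 1.70 TPM at day 26. The day 26 libraries lay below those of days 21 and 12, as for 43.5% of tested genes between days 26 and 12. Day 26 against day 12 gave -0.71 ± 0.27 (SE; 95% interval -1.33 to -0.09; limma, unadjusted p = 0.0286, adjusted p = 0.11). Ppard is the only gene of the 10 in the authors' deposited table of 5 clusters. That table holds 4120 genes, against 43346 in the table of all genes, and the 1 of 10 is to be read against these counts. The authors' deposited table puts it among the 1244 genes of cluster C2 with a p of 0.0232 and a signed fold of -1.6 for day 26 against day 21. The TPM means given here for day 26 over day 21 have a ratio of 0.617, and limma on the log2(TPM + 1) scale gave -0.47 with an unadjusted p of 0.121 (adjusted p = 0.399); the test and adjustment behind the authors' value are not stated, so the p-values are not on 1 scale. Ppara, the PPAR of fatty acid breakdown in liver, reached 1 TPM in 2 of 8 libraries, with the highest value, 1.87 TPM, in day 26 library 2. Its day means were 1.05 ± 0.205, 0.82 ± 0.0849, 0.745 ± 0.177 and 1.31 ± 0.792 TPM (SD, n = 2 each), and no comparison passed (adjusted p = 0.825 for day 26 against day 12).

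Within the PPAR family the balance between Pparg and Ppard differed accordingly. Pparg made up 72.3% and 70.0% of the summed PPAR TPM on day 26, against 51.0% and 41.5% on day 12. The ratio of Pparg to Ppard was 3.66 and 4.90 at day 26, against 1.31 and 0.942 at day 12, and it was 2.05 and 0.803 at day 15 and 2.93 and 0.991 at day 21. The day 26 ratios are the highest of the 8, and the summed PPAR level stayed between 7.30 and 11.9 TPM. The change of this ratio was not tested.

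**Figure D3:**
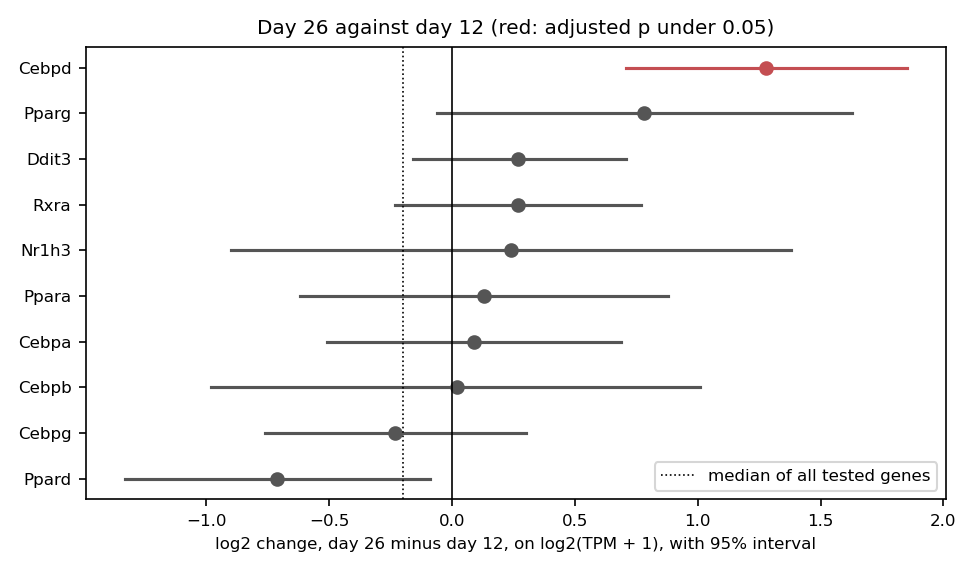
Difference between day 26 and day 12 on the log2(TPM + 1) scale for the 10 genes (points) with its 95% interval (lines); a gene past an adjusted p of 0.05 is red, and the dotted line is the median of all tested genes at -0.20. Only the red interval, that of Cebpd (0.71 to 1.85), belongs to a gene that passed; that of Ppard (-1.33 to -0.09) lies below 0, but the adjusted p is 0.11.

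Rxra, the receptor that pairs with the PPAR and LXR proteins, was 10.0 and 7.65 TPM at day 12, 9.93 and 9.16 TPM at day 15, 12.1 and 10.5 TPM at day 21, and 9.78 and 11.8 TPM at day 26. All 8 values lay within a narrow range, and days 26 and 12 overlapped (0.27 ± 0.22 SE; 95% interval -0.23 to 0.77; limma, adjusted p = 0.44). Nr1h3, the sterol receptor LXR alpha, was 19.2 and 14.3 TPM at day 12, 23.9 and 10.2 TPM at day 15, 16.1 and 7.03 TPM at day 21, and 13.2 and 29.5 TPM at day 26. The libraries of each of the later days lay more than 2-fold apart, and day 26 against day 12 gave 0.24 ± 0.50 (95% interval -0.90 to 1.38; adjusted p = 0.78). Of the 14 other partners and coregulators listed, 13 were tested. By limma none of these passed for day 26 against day 12, where 17.0% of tested genes passed, and 0 had an unadjusted p under 0.05. The share of all tested genes under that looser threshold is not given here. The lowest p-values were those of the coactivators Crebbp (-0.38 ± 0.18 SE) and Ncoa3 (-0.42 ± 0.20), each with an adjusted p of 0.197. The list median was -0.28, against -0.20 for all tested genes.

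**Figure D4:**
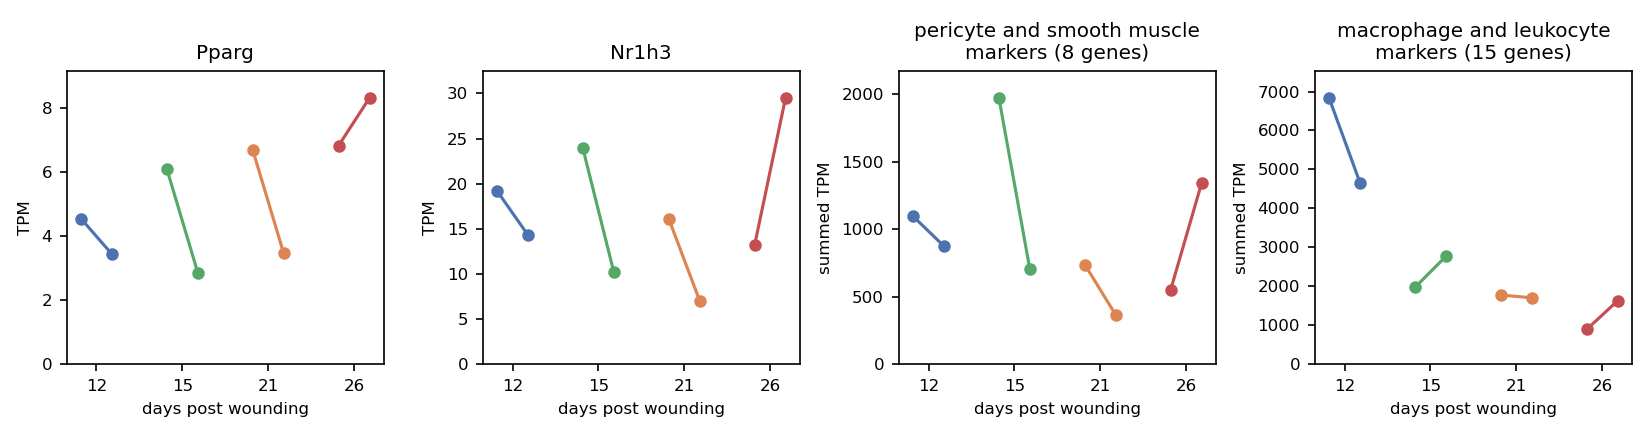
TPM of Pparg and Nr1h3 and summed TPM of the pericyte and smooth muscle markers (8 genes) and of the macrophage and leukocyte markers (15 genes) against days post wounding; a line joins the 2 libraries of a day, with the lower library number on the left. On days 12, 15 and 21 the left library has more Pparg, Nr1h3 and pericyte marker TPM, and on day 26 the right library has more of each.

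Differences between the libraries of a day ran alike for several of these genes. This pattern was picked after the values were seen. The 8 pericyte and smooth muscle markers summed to 1095.7 and 873.6 TPM at day 12, 1972.5 and 704.0 TPM at day 15, 737.4 and 364.8 TPM at day 21, and 549.9 and 1340.0 TPM at day 26. Most of this was Rgs5, a pericyte gene, with 1261.0 and 399.8 TPM on day 15. In all 4 days the library with more of these markers also had more Pparg, Nr1h3, Rxra and Cebpg, as did 15.6% of tested genes. The endothelial markers and the adipocyte markers order the libraries in the same way, so these 3 lists cannot be told apart here. The 8 adipocyte markers summed to 0.25 and 0 TPM at day 12, 3.81 and 0.03 TPM at day 15, 3.26 and 0.58 TPM at day 21, and 1.49 and 12.5 TPM at day 26. Cidec and Lep were listed at 0 in every library. By limma, 0 of the 8 pericyte and 0 of the 11 endothelial markers passed for day 26 against day 12, where 17.0% of tested genes passed. In either list 0 had an unadjusted p under 0.05, and the share of all tested genes under that looser threshold is not given here. Ppard ran the other way and was lower on all 4 days in the library with more pericyte, endothelial and adipocyte markers. The share of all tested genes with this opposite order is not given here. Ddit3 was higher in the library with more macrophage and leukocyte markers on all 4 days, as were 3.38% of tested genes. The part of these cells in the levels of these genes was not tested.

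The targets of these factors were read through lists of textbook genes, counted for day 26 against day 12. In this comparison 5.26% of all tested genes rose and 11.8% fell, and each count below is to be read against these shares. Of 25 PPAR gamma target and adipocyte genes, 16 were tested, 1 rose, 4 fell and 11 did not pass; the list median was -0.03, which turned positive under the other scalings (0.12 and 0.19). Lpl, the lipase that releases fatty acids from lipoproteins, was 293.5 and 249.8 TPM on day 26, against 118.3 and 148.6 TPM on day 12 (1.02 ± 0.21 SE; limma, adjusted p = 0.0136). Fabp5, a fatty acid carrier of keratinocytes and macrophages, was 68.5 and 125.8 TPM on day 26, against 935.8 and 1015.8 TPM on day 12 (-3.38 ± 0.28; adjusted p = 0.000274). Cd36, a fatty acid and lipoprotein receptor also of macrophages, was 4.26 and 2.44 TPM on day 26, against 21.0 and 21.0 TPM on day 12 (-2.37 ± 0.29; adjusted p = 0.00135). Plin2, a lipid droplet coat protein of many cell types, fell by 0.96 ± 0.21 (adjusted p = 0.0158), and Angptl4, a secreted inhibitor of Lpl, fell by 1.60 ± 0.35 (adjusted p = 0.016). Of 15 macrophage and leukocyte markers tested, 13 fell, with a median of -2.04, and their part in the fall of Fabp5, Cd36 and Plin2 was not tested.

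Fabp4, the carrier of fat cells and of capillary endothelium, was 29.1 and 97.5 TPM on day 26, against 79.6 and 62.7 TPM on day 12 (-0.39 ± 0.50 SE; adjusted p = 0.63). Adipoq, the hormone adiponectin, defines fat cells; it was 0.57 and 3.77 TPM on day 26 and 0 in both day 12 libraries, too low to be tested. Both of these genes, like Pparg and Nr1h3, had the higher of their day 26 values in library 2.

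Of 16 fatty acid oxidation targets of PPAR alpha and delta, 14 were tested, 1 rose, none fell and the median was -0.07. Cpt1a, which brings fatty acids into mitochondria, gave -0.45 ± 0.18 (SE; limma, adjusted p = 0.135). The list median turned positive under the other scalings (0.08 and 0.15). Of 11 LXR targets, all tested, 2 rose and 2 fell, with a median of 0.26. Pltp, the phospholipid transfer protein, was 340.2 and 325.2 TPM on day 26, against 129.8 and 112.6 TPM on day 12 (1.45 ± 0.16; adjusted p = 0.000957). Scd1, a fatty acid desaturase, rose by 1.73 ± 0.39 (adjusted p = 0.0184). The lipoprotein Apoe, abundant in macrophages, fell by 1.46 ± 0.37 (adjusted p = 0.0281) and the cholesterol exporter Abcg1 fell by 0.85 ± 0.24 (adjusted p = 0.0432). Abca1, the other exporter, gave 0.26 ± 0.17 (adjusted p = 0.331), and Srebf1, the lipid synthesis regulator, gave 0.47 ± 0.23 (adjusted p = 0.199).

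**Figure D5:**
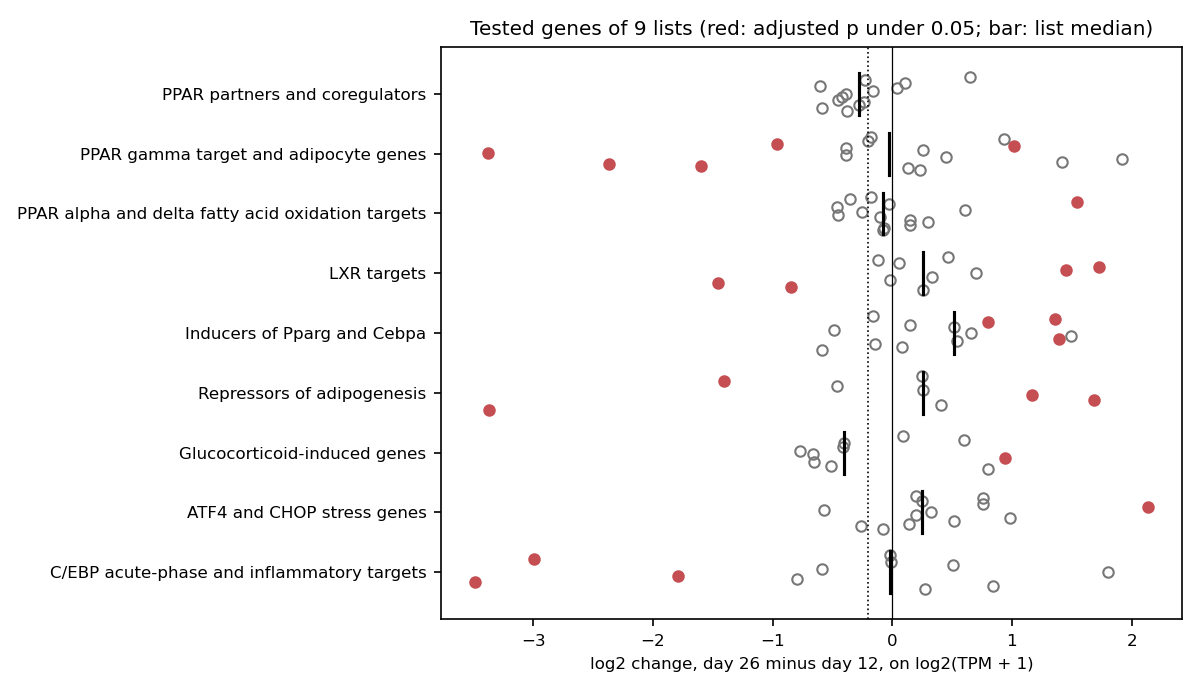
Difference between day 26 and day 12 on the log2(TPM + 1) scale for the tested genes of 9 lists (1 point per gene, red where the adjusted p is under 0.05), with the list median as a bar and the median of all tested genes as a dotted line. In the PPAR gamma target list 4 red points lie below 0 and 1 above; in the list of inducers of Pparg and Cebpa 3 red points lie above 0.

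Upstream of these factors, 3 of 13 listed inducers of Pparg and Cebpa rose, none fell, and the median was 0.52; of all tested genes 5.26% rose and 11.8% fell. Klf15, a glucocorticoid-responsive factor that acts on Pparg, was 4.83 and 5.19 TPM on day 26, against 1.27 and 1.32 TPM on day 12 (1.39 ± 0.27 SE; limma, adjusted p = 0.0107). Zfp423, a determinant of preadipocytes, rose by 1.36 ± 0.27 (adjusted p = 0.0113), to 15.5 and 9.88 TPM on day 26, against 4.55 and 3.92 TPM on day 12. Stat5b, a growth hormone effector, rose by 0.80 ± 0.21 (adjusted p = 0.0311). Of 9 repressors of fat cell formation, 8 were tested, 2 rose and 2 fell. Dlk1, the preadipocyte surface protein Pref-1, was 2.79 and 4.65 TPM on day 26, against 36.5 and 60.2 TPM on day 12 (-3.37 ± 0.35; adjusted p = 0.000697). Sox9 fell by 1.41 ± 0.34 (adjusted p = 0.0223), whereas Gata3 rose by 1.69 ± 0.28 (adjusted p = 0.00528) and Hes1, a Notch target, rose by 1.17 ± 0.29 (adjusted p = 0.0268). Gata3 is also a keratinocyte gene, and all 13 tested keratinocyte markers rose, with a median of 4.39; their part in the rise of Gata3 was not tested. Of 10 glucocorticoid-induced genes, which bear on Cebpd as a hormone-induced gene, 1 rose, Klf9 (0.94 ± 0.26; adjusted p = 0.0391), and the median was -0.40.

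Among 13 genes of the ATF4 and CHOP stress response, 1 rose and none fell. Nupr1, a stress-induced chromatin protein, was 714.3 and 590.4 TPM on day 26, against 167.6 and 127.9 TPM on day 12 (2.14 ± 0.19 SE; limma, adjusted p = 0.000402). Atf4, the activator of Ddit3, was 290.1 and 175.3 TPM on day 26, against 199.1 and 210.3 TPM on day 12 (0.14 ± 0.25; adjusted p = 0.74). Trib3, a target of CHOP, was 1.92 and 1.29 TPM on day 26, against 0.13 and 1.07 TPM on day 12 (0.76 ± 0.36; adjusted p = 0.182).

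Of 11 acute-phase and inflammatory targets of C/EBP proteins, none rose and 3 fell for day 26 against day 12, where 5.26% of all tested genes rose and 11.8% fell. Hp, the haemoglobin-binding haptoglobin, was 6.65 and 7.56 TPM on day 26, against 268.7 and 29.5 TPM on day 12 (-3.49 ± 0.81 SE; limma, adjusted p = 0.0201). Saa3, serum amyloid A of macrophages and stroma, was 31.7 and 107.2 TPM on day 26, against 950.9 and 232.2 TPM on day 12 (-2.99 ± 0.78; adjusted p = 0.0323). Il1rn, the interleukin receptor antagonist, fell by 1.79 ± 0.47 (adjusted p = 0.0321). The day 12 libraries differed several-fold in Hp and Saa3. Between days 12 and 26 the macrophage and leukocyte markers fell too (13 of 15, median -2.04). Their sum was 1968.7 and 2766.8 TPM on day 15, above the 889.8 and 1625.2 TPM of day 26. Hp (3.73 and 1.73 TPM on day 15) and Saa3 (11.4 and 5.64 TPM) were lower on day 15 than on day 26, and Il1rn (2.83 and 3.76 TPM) overlapped. The part of these markers was not tested. The list median was -0.02, and it turned positive under the other scalings (0.05 and 0.13).

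Of 22 genes that the naming rule picked and that passed for day 26 against day 12 (Cebpd and genes of the lists; Angptl4 was not run), 5 passed in each of the 8 fits that left out a library: Fabp5, Cd36, Pltp, Dlk1 and Nupr1. Lpl (highest adjusted p = 0.122), Plin2 (0.139) and Saa3 (0.226) lost their call when day 12 library 2 or day 26 library 1 was left out. Gata3 lost it when day 12 library 2 was left out (0.0505). Leaving out either day 12 library removed the call of Klf15 (0.0792), and leaving out either day 26 library removed that of Hp (0.0708). Zfp423 (0.0704) and Hes1 (0.139) lost theirs with either day 12 library or day 26 library 1 left out, and Scd1 (0.138) with either day 12 library or day 26 library 2. Il1rn (0.232) lost it with day 12 library 2 or either day 26 library left out, and Sox9 (0.155) with any of the 4 libraries of days 12 and 26. Abcg1 (0.241), Apoe (0.189), Klf9 (0.212) and Stat5b (0.179) each passed in at most 3 of the 8 fits. Abcg1 and Il1rn did not pass under quantile or median ratio scaling, nor Sox9 under the first of these, nor Apoe under the other. In all 9 settings other than left-out single libraries, 9 of the 22 genes passed. With no filter on low values Abcg1, Apoe, Hes1, Hp, Il1rn, Klf9, Plin2, Saa3, Scd1, Sox9 and Stat5b lost their calls. Of the 9 settings, Abcg1 passed in 2, Il1rn in 3, and Apoe, Hes1, Klf9 and Saa3 in 4 each. Stat5b passed in 5, and Hp and Sox9 in 6 each.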

How the data were processed

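The authors deposited a table of all genes with a signal per gene and library; it was read as TPM plus 1, since no value was under 1 and each column minus 1 summed to a fixed total, and 1 was subtracted. RSEM 1.12.2 and the genome mm10 are named in the submitters' processing notes; the aligner is not given in the sources used here. Strand is not kept by SMART-seq2. The authors' deposited tables of clusters hold, per the file headers, p-values and a signed fold (a score) whose test is not stated; their 40 value columns per sample were not used here. Columns were assigned to days only, because their numbers differ from the replicate numbers of the labels, and they name the libraries here.

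All genes that reached 1 TPM in 2 or more libraries were fitted on log2(TPM + 1) with limma 3.58.1 in R 4.3.3 (trend, day as a factor; 4 residual and 4.76 prior degrees of freedom), with 4 contrasts, an F test and a separate slope over days (6 and 4.53). The pseudocount of 1 makes folds of low genes too small. P-values were adjusted by Benjamini-Hochberg over all 15062 tested genes, and adjusted p under 0.05 passed; rose and fell refer to these. The comparisons share libraries. Positions and overlaps come from GENCODE vM21 and windows from RefSeq. The 10 genes and the lists were chosen with earlier results of these data known. Named list genes are up to 4 that passed for day 26 against day 12 by adjusted p, or the 2 lowest p-values, plus Fabp4, Adipoq, Lpl, Cd36, Abca1, Srebf1, Atf4, Trib3, Cpt1a and Klf15; Angptl4, Atf3, Socs3, Il6, Rgs5, Cidec, Lep and Xist were added after values were seen. A gene picked by the rule is not reported here, although counts include it. The alternatives were another pseudocount (0.1 or 5), no filter, quantile or median ratio scaling, no mean-variance trend, the libraries of 2 days only, each library left out, and the 2 libraries with the most Xist left out. A block by the columns' own numbers was added after the data were seen.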

Additional observations from a re-analysis of the deposited data

How the results depend on the processing

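The replicate numbers of the labels could not be matched to the value columns, whose own numbers differ from them, so the labels give no pairing. Libraries with the same column number did not deviate together over tested genes (correlations of their deviations from the day means between -0.23 and 0.14). The 2 libraries of a day have opposite deviations, so these correlations are not independent. Whether libraries with the same number share mice, harvest or preparation was not tested. The depth is unknown, the 2 libraries a day limit every interval, and the part of sex, other cells and handling was not tested. A replicate block by column number, chosen after seeing the data, leaves 2 residual degrees of freedom; it gave 1, 83, 0 and 1474 all-gene calls for days 15 against 12, 21 against 15, 26 against 21 and 26 against 12, and 1087 for the F test. Of the 10 genes it called Cebpd for day 26 against day 12 (1.28, adjusted p = 0.0484) and 0 by the F test (Cebpd 0.0764). Under this block uncalled values changed sign for Ppara (0.06) and Nr1h3 (0.17) for day 15 against day 12, and for Nr1h3 for day 26 against day 12 (-0.03) and in its slope (-0.026). The rise of Cebpd for day 26 against day 12 passed under each of the 8 alternatives that kept all libraries of these 2 days, with the exceptions among left-out libraries given above. Pparg did not pass for day 26 against day 12 under any alternative (adjusted p between 0.0556 and 0.465), nor did Ppard (0.0611 to 0.339). The cause of the differences below was not tested.

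All-gene counts of calls depended on the settings. For day 15 against day 12, with 24 calls, there were 3 with no filter, 4 with quantile normalization, 3 with median ratio scaling, 1 with no mean-variance trend, 0 without the 2 libraries with the most Xist and 0 with the libraries of the 2 days only. For day 21 against day 15, with 211 calls, there were 134 with a pseudocount of 0.1, 44 with no filter, 116 with median ratio scaling, 51 with no trend, 0 without the Xist libraries and 16 with the 2 days only. For day 26 against day 21, with 48 calls, there were 15, 10, 12, 0 and 4 with a pseudocount of 0.1, no filter, no trend, without the Xist libraries and with the 2 days only. For day 26 against day 12, with 2562 calls, there were 1667 with no filter, 1569 without the Xist libraries and 1590 with the 2 days only. For the F test, with 1866 calls, there were 781 with no filter and 276 without the Xist libraries.

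Of the 10 genes, the F test called 0 with no filter (Cebpd adjusted p = 0.0946) and 0 with no trend (0.0682); without the Xist libraries it called 1, Cebpb (0.0399) in place of Cebpd (0.0715). The trend called 1 with quantile normalization (Cebpd, 0.0469), 1 with median ratio scaling (Cebpd, 0.0328) and 1 with no mean-variance trend (Ppard, 0.0471).

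Values that changed sign belong to genes that did not pass either way. Without the Xist libraries, Pparg gave -0.36 and Ppard 0.00 for day 15 against day 12, and Nr1h3 0.62 for day 21 against day 15. With quantile normalization, Ddit3 gave 0.02 for day 21 against day 15, Rxra 0.10 for day 26 against day 21, and Cebpg a slope of 0.010. With median ratio scaling, day 26 against day 21 gave 0.14 for Cebpd, 0.01 for Ddit3 and 0.07 for Rxra, and the slopes were 0.005 for Cebpb and 0.011 for Cebpg.

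When each library was left out in turn, all-gene calls ranged from 0 to 50 for day 15 against day 12, 2 to 321 for day 21 against day 15, 0 to 71 for day 26 against day 21, 718 to 2538 for day 26 against day 12, 570 to 1822 for the F test and 1336 to 2289 for the trend. Of the 10 genes, 0 to 1 were called for day 26 against day 12, 0 to 2 by the F test and 0 to 1 by the trend. For day 15 against day 12 the log2 change ranged from -0.36 to 0.52 for Pparg, -0.20 to 0.00 for Ppard, -0.06 to 0.28 for Rxra and -0.66 to 0.50 for Nr1h3. For day 21 against day 15 it ranged from -0.28 to 0.60 for Pparg, -0.17 to 0.04 for Ppara, -0.37 to 0.08 for Ppard, -1.60 to 0.12 for Cebpb, -0.08 to 0.48 for Cebpd and -1.09 to 0.07 for Nr1h3. For day 26 against day 21 it ranged from -0.55 to 0.24 for Cebpa, 0.24 to 1.97 for Cebpb, -0.29 to 0.27 for Cebpd, -0.36 to 0.10 for Ddit3 and -0.18 to 0.06 for Rxra. For day 26 against day 12 it ranged from -0.23 to 0.49 for Ppara, -0.30 to 0.48 for Cebpa, -0.05 to 0.08 for Cebpb, -0.49 to 0.02 for Cebpg, -0.31 to 0.79 for Nr1h3, -0.22 to 0.50 for Atf4 and -1.25 to 0.46 for Fabp4. Slopes ranged from -0.017 to 0.020 for Ppara, -0.037 to 0.008 for Cebpb, -0.014 to 0.011 for Cebpg, -0.006 to 0.027 for Ddit3 and -0.038 to 0.019 for Nr1h3. A day left with 1 library is assumed to vary like the others.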
